A study of Homo sapiens with 9 samples.

Results

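The genes described here are those of a knockdown experiment in Huh7, a human cell line established from a hepatocellular carcinoma, in which a hairpin named shZMAT2-1 was set against a control. The members are the protein-coding genes with at least 1 FPKM (fragments per kilobase of transcript, normalised for sequencing depth) in at least 3 of the 6 control and shZMAT2-1 libraries. They number 10114, out of 16964 protein-coding genes and 27421 genes of all kinds in the deposited table. The series holds 9 libraries in 3 groups of 3: control Huh7, shZMAT2-1 and a further arm, shZMAT2-2. No drug, time point or genotype beyond the ZMAT2 hairpins is given for any group, and every group shares the same line. The labels do not say whether the control cells carry a hairpin of their own, whether a pool or 1 clone was used, or whether replicates were separate cultures. The p-values below therefore measure only the spread between these samples, which may be technical.

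ZMAT2 is a spliceosomal protein with a zinc finger; the spliceosome is the machine that removes introns from pre-messenger RNA. It joins with the tri-snRNP in the precatalytic stage known as the B complex and is released before the first cutting step. TRIM28, which the study's title names beside it, is a corepressor that zinc finger proteins bring to chromatin to keep repeats and imprinted genes silent. Hepatoma lines such as Huh7 keep much of the hepatocyte programme, including albumin and alpha-fetoprotein. The values are totals per gene, so they measure the level of a transcript and not which introns were removed.

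Depth recovered from the values was 18430000 to 22900000 fragments in the 6 libraries, so that 3 fragments from 1 kb of transcript correspond to 0.131 to 0.163 FPKM. Control replicate 2 stood apart. The 13 mitochondrially encoded genes took 43.2% of its fragments, against 7.86% and 8.28% in the other controls and 8.25%, 16.4% and 7.70% in the shZMAT2-1 replicates. It held the lowest of the 6 values for 7808 of the 10114 members and the highest for 515. The median log2 difference over all 11245 genes tested was 0.16, and it was -0.05 without that library, so 7523 members had a higher estimate with it and 3818 without it. With median-of-ratios scaling, which centres each library on the typical gene, the median over all genes was 0.004. List medians below are therefore given relative to all genes tested, and calls are given with FPKM, with median-of-ratios scaling and without control replicate 2. A fit with the summed mitochondrial level as a covariate gave a median of 0.046 over all genes, and its calls are counted with the other alternatives at the end. Beyond that fit, the part of the mitochondrial share in any one difference was not tested.

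The labelled cell type was checked against markers. All 11 hepatocyte and hepatoma markers were members, and their summed level was 3911 to 7206 FPKM in the control and 5530 to 6885 in shZMAT2-1. Fibroblast and endothelial markers were low. Those of fibroblasts summed to 1.57 to 3.73 FPKM in the control and 3.04 to 4.25 in shZMAT2-1, with DCN listed at 0 in all 6 libraries. Endothelial markers summed to 1.05 to 1.74 and 1.06 to 1.17 FPKM, nearly all of it PECAM1. Leukocyte and cholangiocyte sums were higher. Leukocyte markers summed to 56.9 to 136 and 66.3 to 77.8 FPKM, nearly all of it the lysozyme gene LYZ, while PTPRC, the pan-leukocyte marker, stayed at 0.0236 FPKM or less. Cholangiocyte markers summed to 63.7 to 87.1 and 60.7 to 78.9 FPKM through SOX9, KRT19 and EPCAM, with KRT7 at 0.0136 FPKM or less.

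The targeted gene was read first. ZMAT2 (ENSG00000146007, chromosome 5, 140698680 to 140706686, plus strand, as listed in the deposited table) had 37.5, 32.8 and 39.2 FPKM in the control libraries and 15.2, 12.8 and 13.2 FPKM in shZMAT2-1. All 3 shZMAT2-1 libraries lay below all 3 controls, at 37.6% of the control mean. ZMAT2 fell by 1.35 on the log2(FPKM + 1) scale (SE 0.17, limma adjusted p = 0.028). In the two-sided exact permutation test of 3 against 3 libraries p was 0.1, which is the lowest value 20 assignments allow. In shZMAT2-2 it had 22.1, 20.3 and 20.8 FPKM, between the other groups and overlapping neither. In bulk RNA, fewer cells with a transcript and less of it per cell cannot be told apart.

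TRIM28 (ENSG00000130726, chromosome 19, 58544064 to 58550722) had 149, 52.6 and 148 FPKM in the control and 190, 107 and 175 FPKM in shZMAT2-1. The libraries of the groups overlapped because shZMAT2-1 replicate 2 lay under control replicates 1 and 3. The log2 difference was 0.53 (SE 0.42) and missed the threshold (limma adjusted p = 0.81). By exact permutation, two-sided, p was 0.5. Each shZMAT2-1 library was above the control library of its own number, and with that number as a block in the 6 libraries the same difference had an SE of 0.26 and still missed the threshold (limma adjusted p = 0.31). Without control replicate 2 the difference was 0.04. In both groups replicate 2 had the lowest TRIM28 value and the largest share of mitochondrial fragments. Beyond the covariate fit, whose TRIM28 value is not given here, the part of that share in the result was not tested.

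Over all genes tested, 7 rose and 2 fell in shZMAT2-1, or 0.0622% and 0.0178% of the 11245 tested, and all 9 were members (limma, Benjamini-Hochberg adjusted p under 0.05). NPPB, CXCL1, IL18, GBP1, MT1F, LAD1 and GBP2 rose, and ZMAT2 and CRISP3 fell. The natriuretic peptide NPPB is a cardiac hormone, CXCL1 and IL18 are signals of inflammation, and GBP1 and GBP2 are interferon-inducible GTPases. MT1F binds metal ions, LAD1 is a basement membrane anchor, and CRISP3 is a secreted cysteine-rich protein. GBP1 and GBP2 reached 1 FPKM through shZMAT2-1 alone and CRISP3 through the control alone, so as members they had to differ in these directions. Each of the 9 kept its direction without any single library. Each passed without control replicate 2 and missed the threshold without any other library, with counts of 0 genes in those 8 fits.

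**Figure D1:**
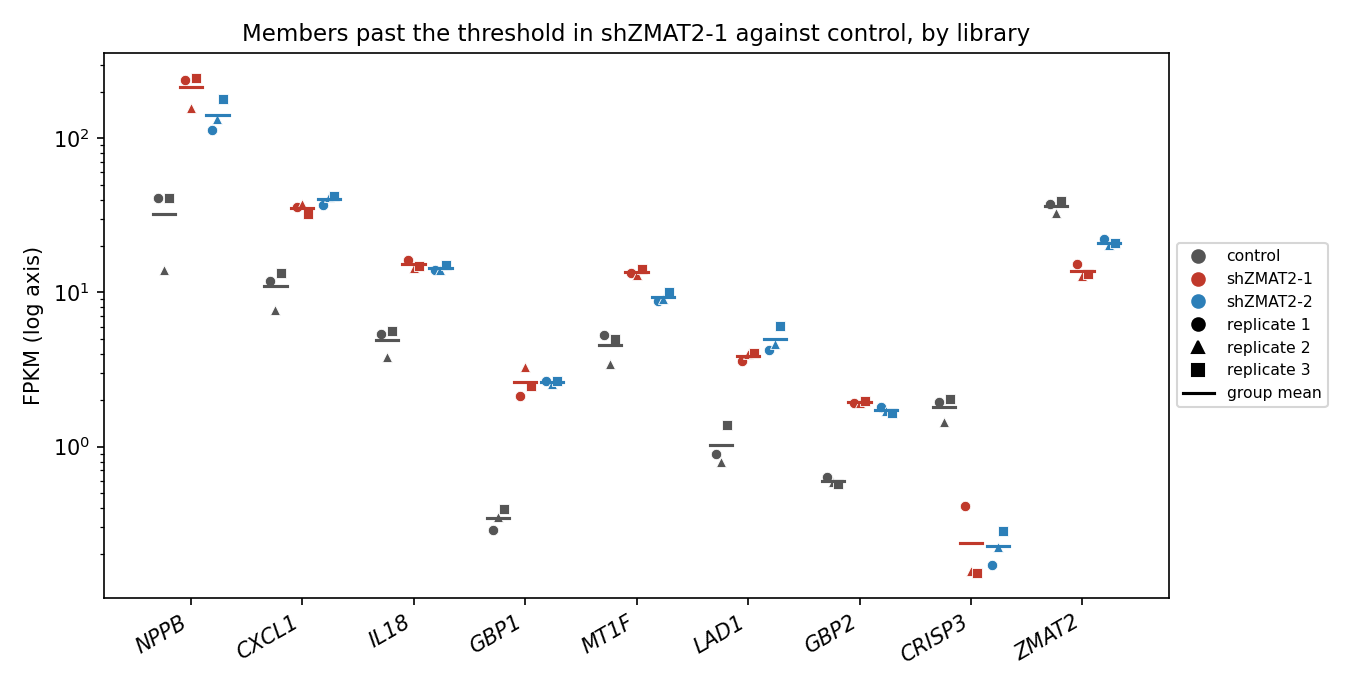
FPKM on a log axis of the 9 members past the threshold, by group, with 1 point for each replicate (circle, triangle and square for replicates 1, 2 and 3) and a bar at the group mean of 3 libraries. In every gene the 3 red shZMAT2-1 points lie clear of the 3 grey control points, as for ZMAT2 at 12.8 to 15.2 against 32.8 to 39.2 FPKM. For GBP1, GBP2 and CRISP3 this was fixed in advance, because each reached 1 FPKM through 1 group alone.

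The counts depended on the processing. With TPM, and with only the 6 control and shZMAT2-1 libraries in the fit, 0% of genes passed in limma, with 176 and 410 at an unadjusted p under 0.05. A filter of 5 FPKM left 3 higher and 1 lower (0.0456% and 0.0152% of 6576 tested), and a fit with no mean trend 4 and 1 (0.0356% and 0.00889%). With median-of-ratios scaling 55 genes were higher and 22 lower (0.489% and 0.196% of those tested), of which 73 were members. Without control replicate 2 the counts were 19 and 14 (0.169% and 0.124%), all members. The 9 genes above were in both sets, and 31 members were in both the scaled and the reduced set. Replicates with the same number deviated together in these groups, but replicates 1 and 3 also correlated across numbers (0.68 and 0.69). With the replicate number as a block in the 6 libraries, a fit added once the data had been seen, the counts were 216 and 33 (1.92% and 0.293%). Of the members, 926 had all 3 shZMAT2-1 libraries above the controls and 162 all 3 below, where the shares over all genes tested were 9.1% and 1.83%. With median-of-ratios scaling these counts were 832 and 687 (8.06% and 6.88% of all genes), and 536 and 118 members kept the separation on both scales. Differences of more than 1 on the log2 scale from the all-gene median were few, 22 members above and 15 below.

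**Figure D2:**
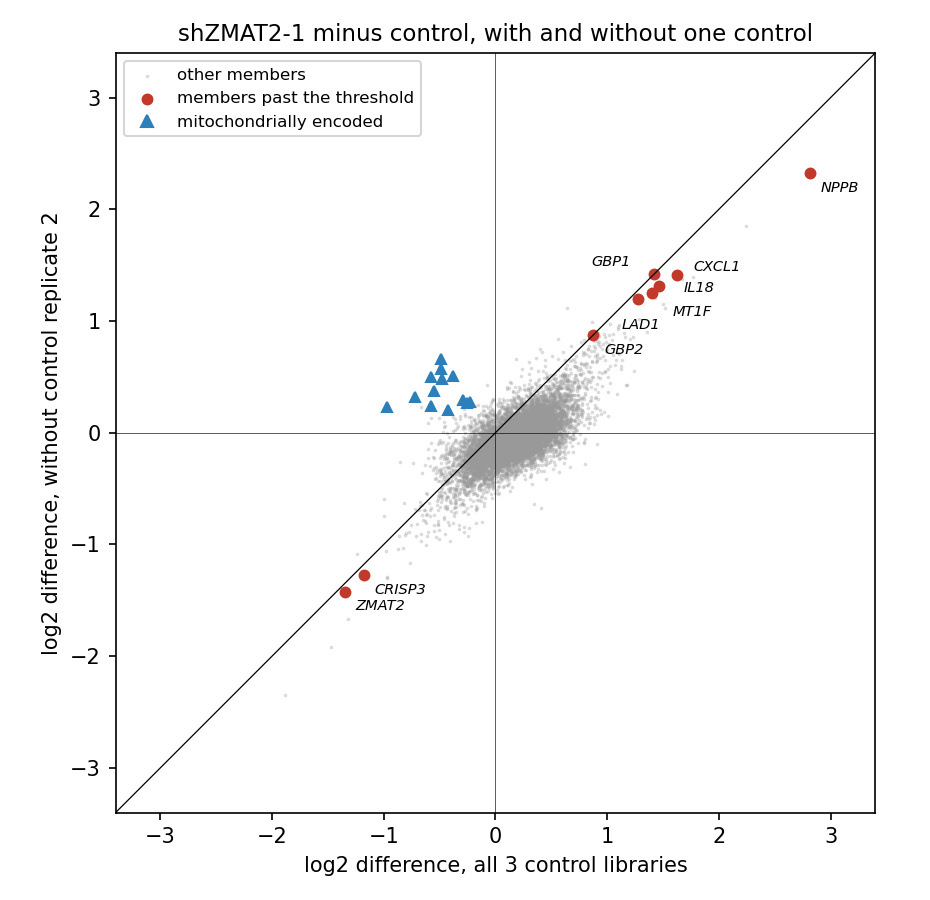
Each point is 1 of the 10114 members, with its log2 difference from all 3 controls on the horizontal axis and from control replicates 1 and 3 on the vertical axis; the line marks equal values. The 9 red members past the threshold keep their sign and most of their size, NPPB going from 2.82 to 2.32, while the 13 mitochondrially encoded genes (blue) go from below 0 to above it.

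The medians of some gene lists stood well away from the typical gene. The lists were chosen with earlier results of these data known, so these medians describe the listed genes and are no test of a theme. Metallothioneins lay 0.85 above the all-gene median on the log2 scale, chemokines and cytokines 0.72, and actin, YAP and SRF genes 0.52. Vasoactive peptides and growth factors followed at 0.30 and interferon response genes at 0.28. Splicing factors lay close to the typical gene, while replication-dependent histones lay 0.25 below it. These medians cover only listed genes that are members. The limit of 1 FPKM was reached through shZMAT2-1 alone by 35 members and through the control alone by 12. Among these are GBP1, GBP2, IRF1, CNN1 and CRISP3, which had to differ in order to be members. GBP1, GBP2 and IRF1 are 3 of the 14 interferon members, so the median of that list is no support for its direction.

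**Figure D3:**
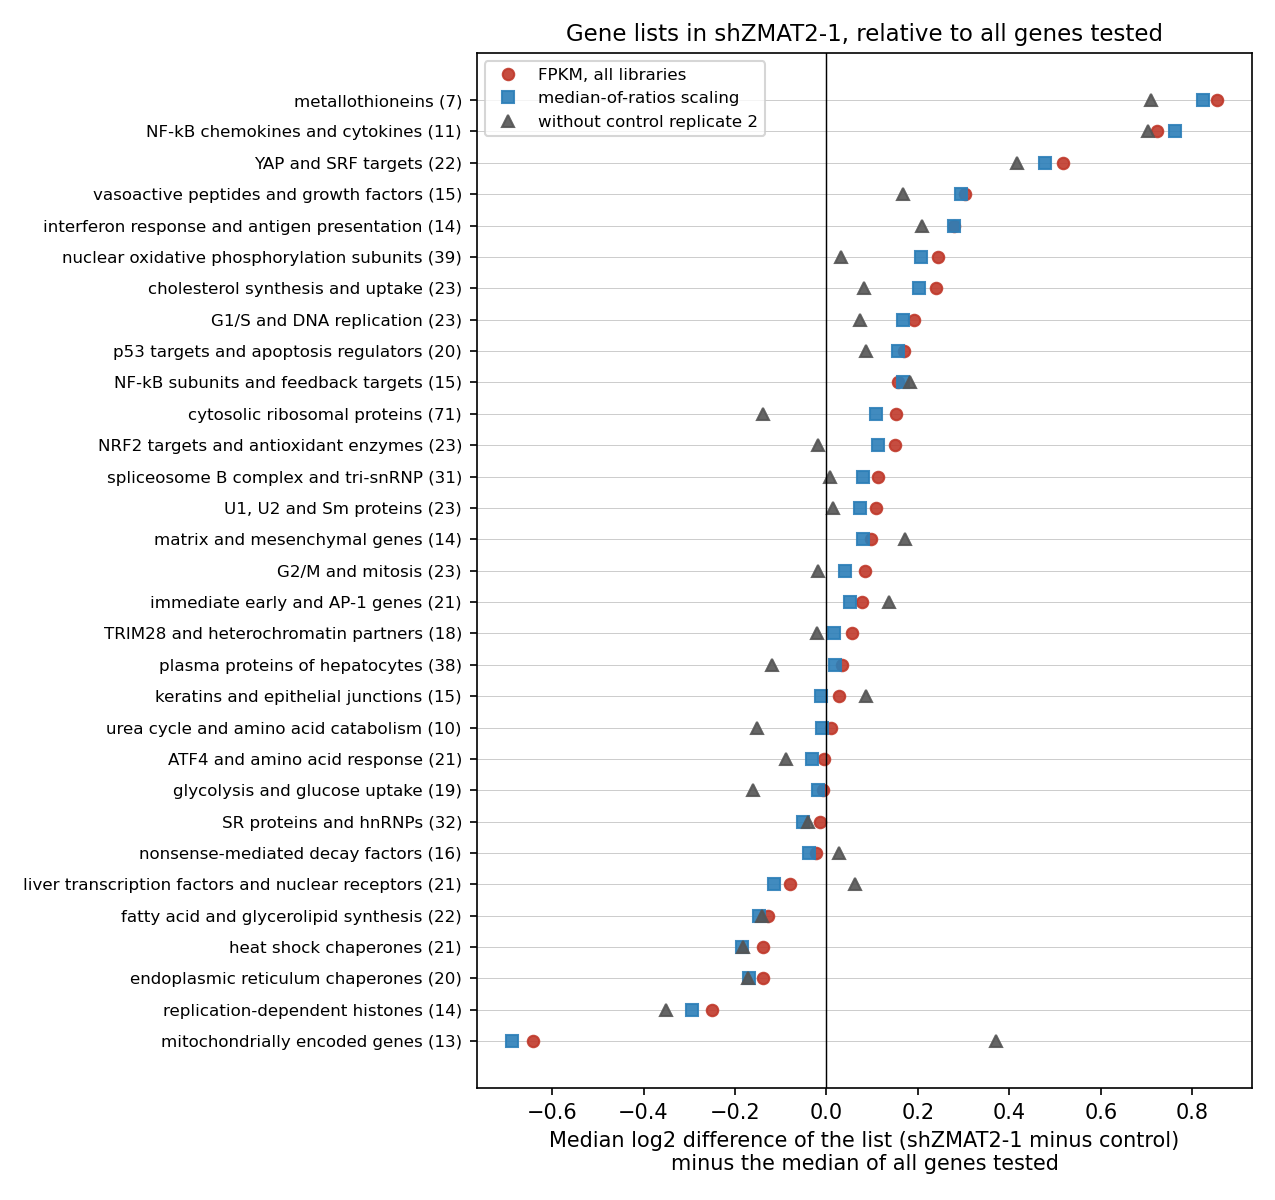
Median log2 difference (shZMAT2-1 minus control) of each gene list minus the median of all genes tested, with the number of members in brackets, for FPKM with all libraries (circles), median-of-ratios scaling (squares) and without control replicate 2 (triangles). Metallothioneins stand highest at 0.85, 0.82 and 0.71, and mitochondrially encoded genes move from -0.64 to 0.37 when control replicate 2 is left out. The lists were chosen with earlier results of these data known.

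The CXC chemokines, small proteins that draw neutrophils to a site of inflammation, form a cluster of related genes on chromosome 4. NF-kB, the transcription factor of inflammatory signalling, binds motifs in front of many of them. The letters GGAATTTCC, searched on both strands in the 250 bases before a gene's start, occur in 0.413% of 35116 RefSeq starts (GRCh38.p14). They occur 91, 89, 78, 90, 78 and 77 bases before CXCL8, CXCL6, CXCL1, CXCL5, CXCL3 and CXCL2, and 176 bases before CXCL10. The windows of 70 bases are shown because these members carry the same letters and had different values; capitals mark the match, and minus-strand genes are read on their own strand.
CXCL8 (chr4:73740459-73740528, plus): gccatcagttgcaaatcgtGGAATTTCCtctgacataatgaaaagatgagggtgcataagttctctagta
CXCL6 (chr4:73836568-73836637, plus): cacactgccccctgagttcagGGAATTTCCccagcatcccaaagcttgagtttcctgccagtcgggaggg
CXCL1 (chr4:73869283-73869352, plus): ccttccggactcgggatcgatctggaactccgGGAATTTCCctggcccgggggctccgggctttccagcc
CXCL5 (chr4:73998718-73998787, minus): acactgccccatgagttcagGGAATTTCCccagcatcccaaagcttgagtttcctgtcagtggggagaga
CXCL3 (chr4:74038730-74038799, minus): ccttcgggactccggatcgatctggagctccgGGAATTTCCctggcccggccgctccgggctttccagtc
CXCL2 (chr4:74099236-74099305, minus): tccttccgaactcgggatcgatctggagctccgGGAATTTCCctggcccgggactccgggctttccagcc
The letters were not found in the windows before the 2 starts of IL32, from which nothing is drawn. A match is a description of these letters, not evidence of binding.

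CXCL1 had 11.8, 7.74 and 13.4 FPKM in the control and 35.8, 37.4 and 32.5 FPKM in shZMAT2-1. Its control libraries were all lower, by a ratio of means of 3.20, and it rose by 1.62 on the log2 scale (SE 0.22, limma adjusted p = 0.034). CXCL8, interleukin 8, had 6.82, 2.74 and 7.39 FPKM against 22.7, 17.2 and 21.6 FPKM. The groups did not overlap, and its log2 difference of 1.77 missed the threshold with FPKM (limma adjusted p = 0.078) and passed with median-of-ratios scaling (0.0049) and without control replicate 2 (0.0088). CXCL6 had 2.40, 0.965 and 2.80 FPKM against 9.57, 5.57 and 10.8 FPKM, with no overlap and a log2 difference of 1.67 (limma adjusted p = 0.10, and 0.018 with median-of-ratios scaling). CXCL5, the most abundant of the 6 in the control, had 23.4, 13.1 and 21.9 FPKM against 31.8, 27.8 and 30.7 FPKM, a smaller separation of 0.64 that did not pass on either scale.

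The related genes CXCL2 and CXCL3 stayed near 1 FPKM. CXCL2 had 1.23, 0.375 and 1.00 FPKM in the control and 1.05, 1.41 and 1.75 FPKM in shZMAT2-1, and CXCL3 had 1.02, 0.493 and 0.867 against 1.12, 1.24 and 0.949 FPKM. Both overlapped between the groups, with log2 differences of 0.38 and 0.24. CXCL1, CXCL2 and CXCL3 are close copies, as are CXCL5 and CXCL6, so reads may have been divided among them in a way the deposited values do not show. CXCL10, which draws T cells, had 1.21, 0.670 and 0.973 FPKM against 2.45, 2.19 and 3.13 FPKM, without overlap, and passed with median-of-ratios scaling only (log2 difference 0.88, limma adjusted p = 0.095 with FPKM and 0.018 scaled).

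IL18, an interleukin-1 family cytokine that needs cleavage by caspase-1 to act, had 5.34, 3.79 and 5.63 FPKM in the control and 16.3, 14.4 and 14.9 FPKM in shZMAT2-1. It rose by 1.46 on the log2 scale (SE 0.18, limma adjusted p = 0.028), with all 3 shZMAT2-1 libraries above the controls. IL32 had 12.5, 9.28 and 14.6 FPKM against 31.7, 21.5 and 27.9 FPKM, separate but not past the threshold (limma adjusted p = 0.18). CX3CL1, a membrane-bound chemokine, had 15.3, 7.04 and 14.6 FPKM against 28.4, 19.0 and 25.8 FPKM, also without overlap. CCL20, the most abundant cytokine gene of the list, had 89.6, 30.4 and 90.5 FPKM against 122, 74.7 and 117 FPKM, which overlapped. The cytokine genes IL6, IL1B and TNF did not exceed 0.131 FPKM in any of the 6 libraries. In all, 10 of the list's 11 members had higher estimates, where 7523 of all 10114 members did, and 10 lay above the all-gene median. Libraries were separate above for 7, where the share over all genes tested was 9.1%. Of the list 2 passed with FPKM and 4 with median-of-ratios scaling (CXCL1, CXCL8, CXCL10 and IL18). Among all genes tested 0.0622% and 0.489% passed as higher. CXCL6 is not on that list.

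The subunits and feedback targets of NF-kB, which include its inhibitors, moved less. Of 15 members 13 had higher estimates, where 7523 of all 10114 members did, and 10 lay above the all-gene median. Libraries were separate above for 4, where the share over all genes tested was 9.1%. None passed on either scale, and the median of the list was 0.16 above that of all genes. NFKBIE, an inhibitor that holds NF-kB in the cytoplasm, had 4.14, 1.74 and 4.33 FPKM against 8.18, 4.57 and 6.75 FPKM. RELB, a subunit of the noncanonical pathway, had 5.10, 1.05 and 4.74 FPKM against 9.81, 4.74 and 8.45 FPKM and overlapped by 1 library.

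Guanylate-binding proteins are GTPases that interferon-gamma and inflammatory cytokines induce and that attack intracellular microbes. GBP1 had 0.289, 0.351 and 0.392 FPKM in the control and 2.12, 3.28 and 2.46 FPKM in shZMAT2-1, a ratio of means of 7.62, and rose by 1.42 on the log2 scale (SE 0.14, limma adjusted p = 0.021). GBP2 had 0.638, 0.593 and 0.569 FPKM against 1.93, 1.92 and 1.97 FPKM and rose by 0.88 (SE 0.11, limma adjusted p = 0.028). Both were under 1 FPKM in every control. The pseudocount of 1 understates such changes. The classical antiviral genes were low: IFIT1, OAS1 and MX1 stayed under 0.5 FPKM in all 6 libraries and were not members. ISG15 had 7.46, 1.92 and 6.06 FPKM against 14.8, 4.53 and 12.1 FPKM, with overlap. TAPBP, which loads peptides onto class I molecules, had 4.23, 3.18 and 3.35 FPKM against 5.09, 7.72 and 5.24 FPKM (limma adjusted p = 0.53). Of 14 members of 32 listed interferon and antigen presentation genes, the 2 GBP genes passed with FPKM, where 0.0622% of all genes tested passed as higher. GBP1, GBP2 and IRF1, a transcription factor, reached 1 FPKM through shZMAT2-1 alone and had to be higher, so a count of higher members is no support.

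The list of YAP and SRF targets holds genes of the actin cytoskeleton. SRF and its actin-sensing cofactors switch on smooth muscle and stress fibre genes, and YAP acts on CCN1, CCN2 and ANKRD1 when cells are spread or under tension. All 22 members had higher estimates, where 7523 of all 10114 members did, and 19 lay above the all-gene median. Libraries were separate above for 14, where the share over all genes tested was 9.1%. CNN1 reached 1 FPKM through shZMAT2-1 alone, so it had to be higher with separate libraries and is no support. No member passed with FPKM, and 5 passed with median-of-ratios scaling: TAGLN, MYL9, CNN1, TPM1 and ANKRD1. With that scaling 0.489% of all genes tested passed as higher. The summed level of the listed genes was 1500 to 2317 FPKM in the control and 2812 to 3131 in shZMAT2-1.

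TAGLN, the actin-binding protein transgelin, had 2.57, 0.608 and 2.60 FPKM in the control and 15.3, 7.80 and 14.1 FPKM in shZMAT2-1. The lowest shZMAT2-1 library was well above the highest control, and its log2 difference of 2.24 was among the highest of the members (limma adjusted p = 0.078, and 0.020 with median-of-ratios scaling). MYL9, a myosin regulatory light chain, had 12.6, 8.07 and 11.4 FPKM against 33.4, 26.4 and 31.5 FPKM (limma adjusted p = 0.068, and 0.0097 scaled). CNN1, calponin of smooth muscle, had 0.432, 0.216 and 0.476 FPKM against 1.97, 1.23 and 1.57 FPKM. These contractile genes are low in Huh7, and the smooth muscle actin ACTA2 did not follow them: it stayed under 0.1 FPKM in all 6 libraries. Tropomyosin TPM1 had 3.67, 2.43 and 3.90 FPKM against 7.08, 7.71 and 6.83 FPKM, and TPM2 had 62.2, 40.7 and 63.9 FPKM against 125, 91.6 and 107 FPKM, neither with overlap.

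Zyxin, a focal adhesion protein encoded by ZYX, had 73.4, 67.2 and 75.4 FPKM in the control and 146, 157 and 140 FPKM in shZMAT2-1. Control replicate 2 was close to its group here, and the log2 difference was 1.03 with that library and 0.98 without it (limma adjusted p = 0.13 and 0.052). CCN1, a matricellular YAP target, had 22.3, 16.8 and 21.3 FPKM against 39.0, 42.6 and 34.6 FPKM, and ANKRD1 had 28.8, 17.4 and 27.6 FPKM against 47.2, 44.8 and 46.0 FPKM. Both separated, and ANKRD1 passed with median-of-ratios scaling (limma adjusted p = 0.029). The abundant genes of the list differed less: ACTB had a log2 difference of 0.43 and CCN2 of 0.42.

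SRF binds the CArG box. A full box lies within the 250 bases before 1.16% of the RefSeq starts, and before 5 of 26 starts of 18 listed genes. FLNA, the actin cross-linker filamin A, and ACTG1, cytoplasmic gamma actin, each have one 94 bases before the start, in capitals here.
FLNA (chrX:154374695-154374764, minus): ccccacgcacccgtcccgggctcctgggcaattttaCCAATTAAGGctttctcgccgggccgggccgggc
ACTG1 (chr17:81512860-81512929, minus): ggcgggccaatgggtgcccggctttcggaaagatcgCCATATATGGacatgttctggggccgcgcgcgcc
FLNA had 56.9, 19.2 and 50.7 FPKM in the control and 93.3, 73.8 and 88.9 FPKM in shZMAT2-1, without overlap. ACTG1 had 425, 171 and 411 FPKM against 592, 409 and 551 FPKM and overlapped. Neither passed on either scale. CNN1, TPM1 and ANKRD1, which passed with median-of-ratios scaling, have no full box in the window searched. TAGLN and MYL9, which passed as well, had no start to search, so nothing is said of their boxes.

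Metallothioneins are small cysteine-rich proteins that bind zinc and copper. The zinc sensor MTF1 induces them through metal response elements, searched here on both strands as TGCACNC or TGCGCNC. These short letters occur before 24.8% of RefSeq starts. Only 3 of the 8 listed genes had a start to search, MT1H, MT1X and MT2A. MT1F and the other members were not searched, and nothing is said of their letters. MT1X has 4 matches in its 250 bases and MT2A has 7. The 150 bases nearest the start but for the last 20 are shown with matches in capitals.
MT1X (chr16:56682300-56682449, plus): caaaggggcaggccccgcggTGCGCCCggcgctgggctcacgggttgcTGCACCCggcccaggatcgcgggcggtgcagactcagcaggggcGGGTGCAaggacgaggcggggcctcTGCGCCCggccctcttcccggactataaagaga
MT2A (chr16:56608414-56608563, plus): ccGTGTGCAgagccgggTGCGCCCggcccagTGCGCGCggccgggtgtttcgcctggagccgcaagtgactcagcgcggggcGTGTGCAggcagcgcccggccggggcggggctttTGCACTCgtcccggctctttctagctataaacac
MT1F rose from 5.27, 3.45 and 5.00 FPKM to 13.4, 13.0 and 14.2 FPKM, by 1.40 on the log2 scale (SE 0.18, limma adjusted p = 0.028). MT1M had 5.18, 1.37 and 3.97 FPKM against 14.9, 7.01 and 12.6 FPKM, and MT1G had 1.89, 0.233 and 2.49 FPKM against 5.85, 3.90 and 5.22 FPKM. Both separated, and neither passed on either scale. MT1X had 6.10, 3.32 and 6.77 FPKM against 11.3, 9.36 and 9.95 FPKM, and MT2A, the most abundant, had 34.9, 21.9 and 40.7 FPKM against 62.4, 57.8 and 60.1 FPKM, also without overlap. MT1E and MT1A overlapped between the groups, with log2 differences of 1.01 and 0.58. All 7 members thus had higher estimates, where 7523 of all 10114 members did, and all 7 lay above the all-gene median. Libraries were separate above for 5, where the share over all genes tested was 9.1%. With FPKM 1 member passed, where 0.0622% of all genes tested passed as higher. MT1H was listed at 0 in all 6 libraries. These genes are near-identical copies side by side on chromosome 16, so the share of reads each received is uncertain.

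**Figure D4:**
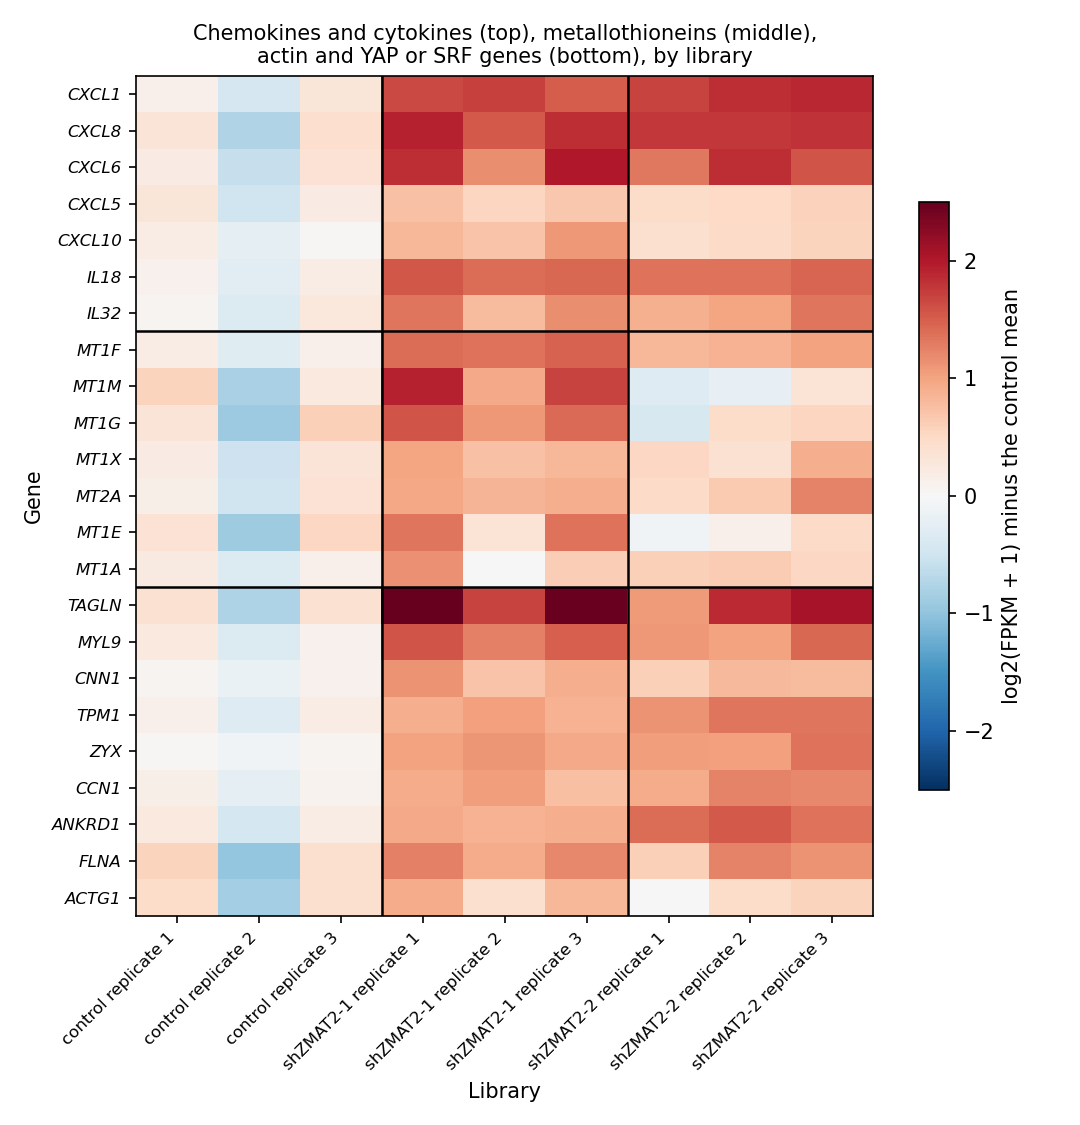
Heat map of log2(FPKM + 1) minus the control mean for chemokines and cytokines, metallothioneins, and actin, YAP and SRF genes in the 9 libraries; red is above the control mean and blue below it. The shZMAT2-1 columns are red in nearly every row, control replicate 2 is below the control mean throughout, and MT1M, MT1G and MT1E are paler in shZMAT2-2 than in shZMAT2-1.

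NPPB, which encodes the B-type natriuretic peptide, had the highest difference of the members. It had 41.1, 14.1 and 41.04 FPKM in the control and 237, 157 and 247 FPKM in shZMAT2-1, a ratio of means of 6.67, and rose by 2.82 on the log2 scale (SE 0.40, limma adjusted p = 0.047). Without control replicate 2 the difference was 2.32 (limma adjusted p = 0.0099). EDN1, the vasoconstrictor endothelin, had 2.60, 1.96 and 2.503 FPKM against 4.91, 6.22 and 5.66 FPKM and passed with median-of-ratios scaling (limma adjusted p = 0.036). AREG, a ligand of the EGF receptor, had 3.22, 2.40 and 2.53 FPKM against 5.78, 6.33 and 5.37 FPKM without passing. GDF15, a stress-induced cytokine, had 38.5, 15.6 and 41.4 FPKM against 64.4, 57.4 and 61.03 FPKM, again without overlap. Of the list's 15 members 14 had higher estimates, where 7523 of all 10114 members did, and 10 lay above the all-gene median. Libraries were separate above for 6, where the share over all genes tested was 9.1%. With FPKM NPPB passed, where 0.0622% of all genes tested passed as higher.

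LAD1, the keratin and junction gene that passed, had 0.902, 0.791 and 1.39 FPKM in the control and 3.59, 4.00 and 4.04 FPKM in shZMAT2-1 and rose by 1.28 (SE 0.17, limma adjusted p = 0.034). VIM, the mesenchymal filament vimentin, had 18.8, 11.3 and 18.1 FPKM against 49.9, 38.3 and 44.3 FPKM. It did not overlap, and its difference of 1.43 passed with median-of-ratios scaling and without control replicate 2 (limma adjusted p = 0.0049 and 0.033, and 0.078 with FPKM). PDZK1, a scaffold of membrane transporters, had 12.9, 4.92 and 9.66 FPKM against 24.4, 23.7 and 30.6 FPKM, with the same pattern of calls. The matrix protein gene SPARC had 3.03, 2.47 and 2.91 FPKM against 4.52, 4.93 and 4.53 FPKM, a separation of 0.58 that did not pass. Over the 14 matrix and mesenchymal members the median lay 0.10 above that of all genes, and over the 15 keratin and junction members 0.03 above it.

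Immediate early genes did not share a direction. EGR1, a zinc finger factor induced by growth signals, had 7.35, 17.4 and 6.58 FPKM in the control and 3.10, 5.54 and 4.50 FPKM in shZMAT2-1, lower without overlap. DUSP1, a phosphatase that ends MAP kinase signals, had 19.4, 8.54 and 19.6 FPKM against 41.1, 31.1 and 37.0 FPKM, higher without overlap. JUNB, a subunit of AP-1, had 14.9, 8.77 and 15.8 FPKM against 20.6, 20.9 and 20.3 FPKM. None passed with FPKM, and DUSP1 passed with median-of-ratios scaling (limma adjusted p = 0.041). The list counted 15 of 21 higher estimates, near the 7523 of 10114 over all members. Of its members 5 were separate above and 2 below, where the shares over all genes tested were 9.1% and 1.83%.

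On the lower side CRISP3 had 1.93, 1.43 and 2.03 FPKM in the control and 0.409, 0.155 and 0.152 FPKM in shZMAT2-1. Having reached 1 FPKM through the control alone, it had to be lower to be a member. CRISP3 fell by 1.18 on the log2 scale (SE 0.13, limma adjusted p = 0.028). Of its 3 shZMAT2-1 values 2 were close to that of 3 fragments from 1 kb of transcript. The next genes are the lower members with separate libraries and at least 5 FPKM in a group, and ZMAT2 is the only one of those 10 that passed with FPKM. S100A9, a calcium-binding protein abundant in myeloid cells, had 14.7, 6.03 and 20.96 FPKM against 3.31, 1.37 and 3.76 FPKM, with a log2 difference of -1.88. GSTA1, a glutathione transferase of hepatocytes with close paralogs, had 44.9, 17.7 and 47.9 FPKM against 12.9, 8.31 and 14.2 FPKM. HTRA3, a secreted serine protease, had 14.3, 6.82 and 15.8 FPKM against 4.81, 2.96 and 4.66 FPKM. Each of these 3 passed with median-of-ratios scaling (limma adjusted p = 0.027, 0.016 and 0.0070) and without control replicate 2 (0.029, 0.0099 and 0.0099).

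**Figure D5:**
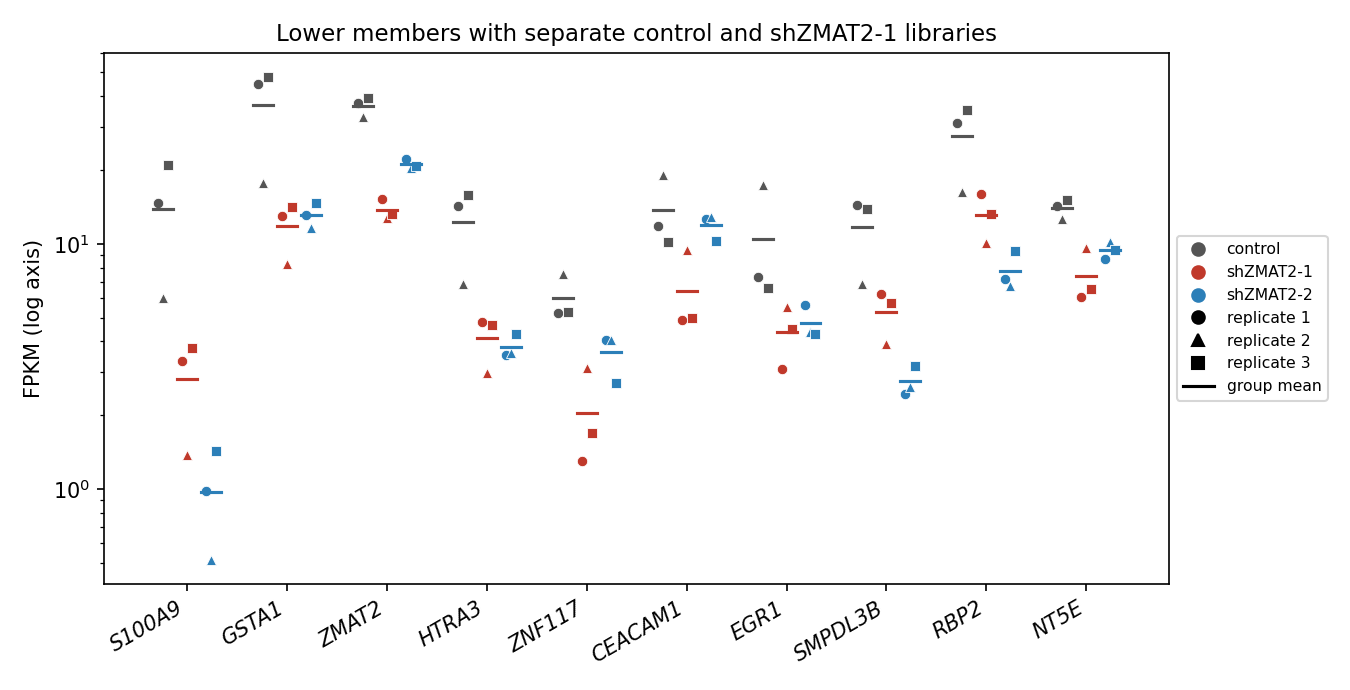
FPKM on a log axis of the 10 lower members with separate control and shZMAT2-1 libraries, by group, with 1 point for each replicate and a bar at the mean of 3 libraries. Control replicate 2 (grey triangle) is the lowest control for S100A9, GSTA1, ZMAT2, HTRA3, SMPDL3B, RBP2 and NT5E and the highest for ZNF117, CEACAM1 and EGR1.

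SMPDL3B, a lipid-modifying phosphodiesterase, had 14.4, 6.85 and 13.9 FPKM in the control and 6.21, 3.89 and 5.76 FPKM in shZMAT2-1. RBP2, an intracellular retinol-binding protein, had 31.2, 16.3 and 35.1 FPKM against 16.0, 10.03 and 13.3 FPKM. These also passed with median-of-ratios scaling and without control replicate 2. ZNF117, a zinc finger gene, had 5.24, 7.56 and 5.26 FPKM against 1.29, 3.12 and 1.69 FPKM. NT5E, the ectoenzyme that makes adenosine, had 14.3, 12.7 and 15.1 FPKM against 6.06, 9.59 and 6.56 FPKM. The adhesion molecule gene CEACAM1 had 11.8, 19.1 and 10.2 FPKM against 4.87, 9.42 and 4.97 FPKM, where the closest control and shZMAT2-1 libraries were less than 1 FPKM apart, and it overlapped with median-of-ratios scaling. ZNF117, NT5E and CEACAM1 passed on neither scale.

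Splicing factors other than ZMAT2 showed no call. Of 31 B complex and tri-snRNP genes, all members, ZMAT2 alone passed and ZMAT2 alone had separate libraries, and the median lay 0.11 above that of all genes (0.01 without control replicate 2). PRPF31, a tri-snRNP protein, had 22.5, 8.85 and 25.5 FPKM in the control and 35.2, 18.2 and 29.1 FPKM in shZMAT2-1, with overlap. Of 23 members among U1, U2 and Sm proteins 3 had separate higher libraries, where the share over all genes tested was 9.1%, and none passed. SNRPB2 was among these 3, at 33.9, 28.9 and 34.1 against 47.0, 41.4 and 42.3 FPKM. The 32 SR proteins and hnRNPs lay 0.01 below the all-gene median; SRSF11 had 21.4, 27.2 and 22.2 FPKM against 15.3, 20.3 and 18.2 FPKM, lower in all 3 libraries with FPKM but overlapping when scaled. The 16 factors of nonsense-mediated decay, which destroys transcripts with early stop codons, lay 0.02 below. A change in the level of these factors was not detectable here at the gene level, and introns were not measured.

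Partners of TRIM28 in heterochromatin were near the typical gene, 0.06 above the all-gene median over 18 members, with none past the threshold on either scale. MPHOSPH8, a reader of methylated histone H3, had 10.6, 10.7 and 10.3 FPKM in the control and 6.82, 9.23 and 7.52 FPKM in shZMAT2-1. CHD3, a remodeller of the NuRD complex, had 13.8, 12.5 and 13.7 FPKM against 9.75, 10.4 and 10.9 FPKM. Both were lower without overlap on both scales, with log2 differences of -0.39 and -0.34 (limma adjusted p = 0.81 for each).

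Cell cycle lists held no call. The 23 G1/S and replication genes lay 0.19 above the all-gene median (0.07 without control replicate 2), and MYBL2, a transcription factor of proliferating cells, had 126, 112 and 123.03 FPKM against 168, 157 and 156 FPKM. The 23 genes of G2/M and mitosis lay 0.08 above it, and MKI67, the proliferation marker, had 49.6, 77.0 and 47.1 FPKM against 30.5, 63.3 and 33.0 FPKM, high in both replicates numbered 2. All 20 p53 and apoptosis members had higher estimates, where 7523 of all 10114 members did, and 15 lay above the all-gene median. The median of this list lay 0.17 above that of all genes (0.09 without control replicate 2), and none of its members passed with FPKM. PLK2, a p53-induced kinase, had 4.59, 2.46 and 4.89 FPKM against 7.02, 6.97 and 7.70 FPKM and passed with median-of-ratios scaling only (limma adjusted p = 0.038). GADD45A, a DNA damage gene, had 10.1, 7.81 and 11.3 FPKM against 16.6, 13.6 and 16.2 FPKM, separate without passing.

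Plasma protein genes went both ways. Of 38 plasma protein genes 27 had higher estimates, near the 7523 of 10114 over all members. With FPKM 4 were separate above and 2 below, where the shares over all genes were 9.1% and 1.83%. With median-of-ratios scaling 1 was separate above and 10 below, where the shares over all genes were 8.06% and 6.88%. The median lay 0.03 above that of all genes and 0.12 below it without control replicate 2. PLG, plasminogen, had 4.44, 2.94 and 4.91 FPKM in the control and 1.59, 1.78 and 1.89 FPKM in shZMAT2-1 and passed with median-of-ratios scaling and without control replicate 2 (limma adjusted p = 0.0049 and 0.011). The protease inhibitor gene A2M had 290, 157 and 277 FPKM against 168, 154 and 167 FPKM, overlapping through control replicate 2, and passed when scaled (limma adjusted p = 0.040). SERPIND1, heparin cofactor II, had 94.4, 102 and 98.5 FPKM against 127, 155 and 128 FPKM, higher with FPKM and overlapping when scaled. The apolipoprotein gene APOA1 had 422, 68.4 and 434 FPKM against 611, 179 and 606 FPKM, low in both replicates numbered 2.

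Among metabolic genes ARG1, the arginase that closes the urea cycle, had 11.002, 8.49 and 10.9 FPKM against 5.62, 4.45 and 6.05 FPKM, lower without overlap, and passed when scaled (limma adjusted p = 0.019). NR0B2, a nuclear receptor that represses bile acid synthesis, had 7.53, 4.20 and 6.83 FPKM against 13.0, 9.63 and 13.0 FPKM and passed when scaled (limma adjusted p = 0.048). SLC7A5, a transporter of large neutral amino acids, had 50.9, 21.3 and 49.3 FPKM against 92.6, 82.8 and 87.0 FPKM and also passed when scaled (limma adjusted p = 0.029), while the other 20 members of the ATF4 list did not. GPAM, the first enzyme of glycerolipid synthesis, had 9.16, 4.36 and 9.15 FPKM against 3.48, 4.74 and 4.39 FPKM, where control replicate 2 lay among the shZMAT2-1 libraries. Of 23 cholesterol genes 21 had higher estimates, where 7523 of all 10114 members did, and 17 lay above the all-gene median. IDI1, an isoprenoid enzyme, had 30.2, 16.8 and 30.1 FPKM against 37.3, 30.2 and 39.9 FPKM. PGD, an enzyme of the pentose phosphate pathway on the NRF2 list, had 128, 73.6 and 132 FPKM against 179, 150 and 168 FPKM. HNF4A, the master factor of hepatocytes, had 26.1, 14.2 and 26.9 FPKM against 28.4, 26.5 and 30.3 FPKM, which overlapped.

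Several lists moved with control replicate 2. Ribosomal protein genes lay 0.15 above the all-gene median with it and 0.14 below without it, over 71 members. Nuclear subunits of oxidative phosphorylation lay 0.24 and 0.03 above, over 39 members. Mitochondrially encoded genes, all 13 with lower estimates, lay 0.64 below with it and 0.37 above without it; MT-ND4L, the most affected, had 5679, 68342 and 5697 FPKM in the control and 4913, 12908 and 4666.5 FPKM in shZMAT2-1. Among the lists below the typical gene both ways were chaperones, histones and lipid synthesis. Heat shock chaperones lay 0.14 and 0.18 below, and HSPA8, the constitutive HSP70, had 488, 381 and 485 FPKM against 328, 292 and 315 FPKM. Replication-dependent histones lay 0.25 and 0.35 below, and H4C8 had 16.0, 11.9 and 15.7 FPKM against 11.1, 10.2 and 9.92 FPKM. Histone messages mostly lack a poly(A) tail and their genes are near-identical, so poly(A) libraries measure them poorly. Endoplasmic reticulum chaperones lay 0.14 and 0.17 below, and genes of fatty acid and glycerolipid synthesis 0.13 and 0.14 below. None of the members of these 7 lists passed with FPKM or with median-of-ratios scaling.

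The arms were compared directly in the fit of all 9 libraries, where the control libraries enter only the estimate of the spread. Between shZMAT2-2 and shZMAT2-1 no gene passed in limma, 0% of 11245, with 465 at an unadjusted p under 0.05, so no member can be called particular to either hairpin in that fit. Without control replicate 2 no gene passed either, with 2661 at an unadjusted p under 0.05. With control replicate 2 and shZMAT2-1 replicate 2 both left out, 1486 genes were higher and 3275 lower in shZMAT2-2 (13.2% and 29.1%). That fit compares shZMAT2-1 libraries of 8.25% and 7.70% mitochondrial fragments with shZMAT2-2 libraries of 27.0%, 14.5% and 16.6%, and the part of that share was not tested. For ZMAT2 itself the difference of shZMAT2-2 minus shZMAT2-1 was 0.59 on the log2 scale (limma adjusted p = 0.66). The arms were close for CXCL8, IL18, GBP1 and CRISP3, with differences of 0.01, -0.07, 0.01 and -0.01. MT1M had 2.36, 2.64 and 4.27 FPKM in shZMAT2-2 against 14.9, 7.01 and 12.6 FPKM in shZMAT2-1, without overlap, a difference of -1.58 (limma adjusted p = 0.66). MT1G had 0.745, 2.19 and 2.36 FPKM in shZMAT2-2, below all 3 shZMAT2-1 libraries. CEACAM1 went the other way, with 12.6, 12.8 and 10.3 FPKM in shZMAT2-2, at the control level, against 4.87 to 9.42 FPKM in shZMAT2-1. The matricellular gene THBS1 had 20.3, 31.2 and 22.5 FPKM in shZMAT2-2 and 12.02, 17.2 and 13.1 FPKM in shZMAT2-1, and 10.3, 5.496 and 9.03 FPKM in the control.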

How the data were processed

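RNA from 9 Huh7 samples was sequenced as poly(A), strand-specific libraries, per the labels' protocols. The authors deposited FPKM for 27421 genes, and every sample column was used. Tools named per the submitters' processing notes are HISAT, featureCounts and DESeq2, with no versions. For the genome build, the sources used here give nothing, and coordinates of genes are those of the deposited table. Depth was recovered from single-exon genes, whose values were whole fragments within 0.1 for 100% of 788 to 920 values per library.

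limma 3.58.1 (R 4.3.3) was fitted with a mean trend to log2(FPKM + 1) of the 11245 genes reaching 1 FPKM in 3 or more of the 9 libraries. The group was the only term, and a gene passed when its two-sided p, adjusted over all genes tested by Benjamini-Hochberg, was under 0.05. Python 3.11.15, pandas 2.3.3, scipy 1.17.1 and matplotlib 3.10.9 did the rest. The fit was also run on simulated data. Its noise was independent between genes, unlike the shared shift of control replicate 2, so that run is no check of the calls here. Promoters came from RefSeq (GRCh38.p14), where 8 of the 9 chemokine and cytokine genes looked up, 3 of 8 metallothioneins and 18 of 23 YAP and SRF genes were matched.

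Same-numbered control and shZMAT2-1 libraries deviated together (correlations of 0.61, 0.78 and 0.69), although replicates 1 and 3 correlated with each other as well (0.68 and 0.69); no label states a shared batch. The fit described above, the permutation tests and the counts of separate libraries use no block, and the number enters only 2 alternative fits. For shZMAT2-2 and the control the same-numbered correlations were -0.76, -0.22 and 0.61, so only the libraries numbered 3 deviated together.

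Members, 36 gene lists and the naming rule were chosen with earlier results of these data known. The rule took ZMAT2 and TRIM28; every member that passed; the 10 highest and 10 lowest differences among members with separate libraries and a group mean of 5 FPKM or more; and, per list, up to 3 members of smallest p. Other listed genes named in the text (such as the remaining chemokines, metallothioneins and actin genes, CCL20, RELB, APOA1, MKI67, HNF4A, THBS1 and GDF15) were named after their values were seen.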

Additional observations from a re-analysis of the deposited data

How the results depend on the processing

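The counts of genes past the threshold moved most with the processing. Higher and lower calls were 7 and 2 with a pseudocount of 0.1, 4 and 4 without a filter on low values, 3 and 1 with a filter of 5 FPKM, and 4 and 1 without the trend. They were 0 and 0 with TPM (176 genes at an unadjusted p under 0.05) and with only the 6 libraries in the fit (410 genes). Quantile normalization gave 56 and 23, median-of-ratios scaling 55 and 22, scaling on nuclear genes 37 and 18, and the mitochondrial covariate 304 and 115, each of 11245 tested. Leaving out 1 library gave 0 to 19 higher and 0 to 14 lower, and leaving out control replicate 2 and shZMAT2-1 replicate 2 gave 75 and 65. With the replicate block they were 10 and 3 in all 9 libraries. Among fits chosen after seeing the data, the replicate block in 6 libraries gave 216 and 33, and median-of-ratios scaling without control replicate 2 gave 43 and 20.

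Between the arms 0 genes passed, except without both those libraries, where 1486 were higher and 3275 lower in shZMAT2-2; the cause was not tested. Members with separate libraries numbered 588 and 65 with a filter of 5 FPKM, 407 and 20 with TPM, and 3696 and 3848 without both libraries. Members separate below numbered 687 with median-of-ratios scaling, 686 with quantile normalization and 562 scaled on nuclear genes. Without a filter 397 genes were separate below, a count that takes in genes that are not members. Of all genes tested 1.83% were separate below with FPKM and 6.88% with median-of-ratios scaling. The other settings have no such share beside them, and nothing is drawn from their counts about the members. Leaving out 1 library gave 1011 to 3556 higher and 182 to 1994 lower. Without shZMAT2-1 replicate 2 they were 3556 and 1207, and without control replicate 2 they were 1057 and 1994. A member separate in all libraries stays separate in fewer, so these counts, and those without both libraries, could not fall. Their rise was in part fixed in advance, no share over all genes is given beside them, and the cause of the rest was not tested.

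ZMAT2 kept its direction in all fits. It missed the threshold with TPM (-1.17, limma adjusted p = 0.88) and with only the 6 libraries (-1.35, limma adjusted p = 0.29). When 1 library was left out ZMAT2 ranged from -1.42 to -1.30. Of those fits it passed only without control replicate 2 (limma adjusted p = 0.0077), and the others gave limma adjusted p = 0.084 to 0.25. MT-ND4L and APOA1 changed sign without control replicate 2 (0.23 and -0.078), also when scaled (0.30 and -0.0046); over fits without 1 library they ranged from -1.57 to 0.23 and from -0.078 to 1.38. Depth limits genes near 0.15 FPKM, such as CRISP3.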

Other observations

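The differences of the 10104 members found in GENCODE release 29 were also read by gene structure, as a description with no test. By the exons of the transcript with most exons, the median log2 difference was 0.10 for 157 genes of 1 exon, 0.20 for 1372 genes of 2 to 4 exons, 0.21 for 3433 of 5 to 9, 0.16 for 3553 of 10 to 19 and 0.06 for 1589 of 20 or more. Without control replicate 2 these medians were -0.12, -0.06, -0.03, -0.05 and -0.10, so genes with many introns and genes with none both lay lowest. By exonic length, the median went from 0.35 for 379 genes under 1500 bases to 0.05 for 2098 genes of 8000 bases or more, and without control replicate 2 from -0.02 to -0.08. In shZMAT2-2 the order was the opposite, -0.12 to 0.10, with the same controls.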
